A study of Homo sapiens with 24 samples.

Results

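The response to a FOXA1 siRNA was measured in RT112 cells in which ZBED2 was depleted at the same time. RT112 is a human bladder cancer line of the luminal papillary (LumP) subtype. Of the 24 3′ RNA-seq libraries of the study, 8 belong to this comparison. In 4 of them siFOXA1 was transfected together with an siRNA against ZBED2 (siFOXA1+siZBED2-1 and siFOXA1+siZBED2-2), and in the other 4 the ZBED2 siRNA was transfected without siFOXA1 (siZBED2-1 and siZBED2-2). Each of these groups held 2 libraries. The ZBED2 siRNA is thus present on both sides, and the only labelled difference between the sides is siFOXA1. The members were chosen by these labels alone. The same treatments in SCaBER, a bladder cancer line of the basal/squamous (Ba/Sq) subtype, and the pair of siControl and siFOXA1 groups of RT112 were used for comparison. Knock-down was transient, by reverse transfection with a lipid reagent, and a single FOXA1 siRNA (number 1) was used in every library that had one, so effects of this siRNA on other transcripts cannot be told apart from those on FOXA1. Whether the total amount of siRNA was equal on both sides is not given in the sources used here.

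FOXA1 is a forkhead transcription factor that binds closed chromatin and opens it for other factors. In the urothelium it acts with GATA3 and PPARG in the luminal differentiation programme. ZBED2 is a zinc finger transcription factor of basal epithelial cells and has been described as a repressor of interferon target genes. Type I and III interferons signal through receptor-bound JAK kinases to STAT2, IRF9 and partners, which drive a large group of antiviral genes.

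Total counts ran from 4425404 to 5207195 per library, and 14121 to 15342 genes had at least 1 count. Levels are given in CPM, which is counts relative to library size with TMM scaling over the 12 RT112 libraries. A library with 0 counts of a gene leaves room for up to 3 counts, or 0.521 to 0.664 CPM, and this limit covers counting error only. Transcripts of the mitochondrial genome took 18.57% to 20.6% of the counts with siFOXA1 and 8.215% to 16.94% without it. The lowest of these shares belonged to siZBED2-2 replicate 2, which stood apart from its partner, with a chi-square per gene of 22.15 against 7.268 to 8.355 in the other 3 groups, so the main count is also given without it. Summed levels of 9 epithelial markers were 7345 to 8294 CPM with and 7660 to 8570 CPM without siFOXA1. Leukocyte markers summed to at most 2.578 CPM, with CD3E and LYZ at 0, endothelial markers to at most 5.088 CPM, with VWF and CDH5 at 0, and fibroblast markers to 112.6 to 138.2 CPM with and 124 to 186 CPM without siFOXA1, with COL1A2 and COL3A1 at 0. Nothing states that replicates came from separate cultures, so p-values measure the spread between these libraries, which may be technical. In every sentence below that gives 8 levels, the order on each side is siZBED2-1 replicates 1 and 2, then siZBED2-2 replicates 1 and 2, first without and then with siFOXA1.

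FOXA1 (ENSG00000129514, chromosome 14 at 37589552 to 37595249 of GRCh38.p14) was examined first as the targeted gene. It stood at 45.6, 56.9, 48.6 and 31.3 CPM without siFOXA1 and at 4.04, 11.3, 15.6 and 9.91 CPM with it. The sides did not overlap, and the means were 45.59 ± 10.7 and 10.21 ± 4.77 CPM (SD, n = 4). FOXA1 fell by 2.17 on the log2 scale (SE 0.30, adjusted p = 2.49e-05, edgeR quasi-likelihood test). With siZBED2-1 it fell by 2.72 and with siZBED2-2 by 1.65, and the test of the difference gave an adjusted p of 0.595.

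ZBED2 (ENSG00000177494, chromosome 3 at 111592900 to 111595346) was low on both sides. In siControl it stood at 22.2 and 16.9 CPM. With a ZBED2 siRNA it stood at 2.38, 0, 7.33 and 6.25 CPM without siFOXA1 and at 1.91, 1.42, 2.63 and 0.843 CPM with it. The library at 0 allows up to 0.664 CPM. The change with siFOXA1 over both ZBED2 siRNAs was -0.83 on the log2 scale (SE 0.94, adjusted p = 0.612), so no common difference was detectable at this depth. The 2 siRNAs were not alike. With siZBED2-2 ZBED2 had 38 and 36 counts without and 12 and 4 counts with siFOXA1, so it was lower there. With siZBED2-1 it had 12 and 0 counts without and 9 and 7 counts with siFOXA1. In siFOXA1 alone ZBED2 stood at 5.43 and 1.5 CPM, which is in the range of the ZBED2 siRNA libraries.

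**Figure D1:**
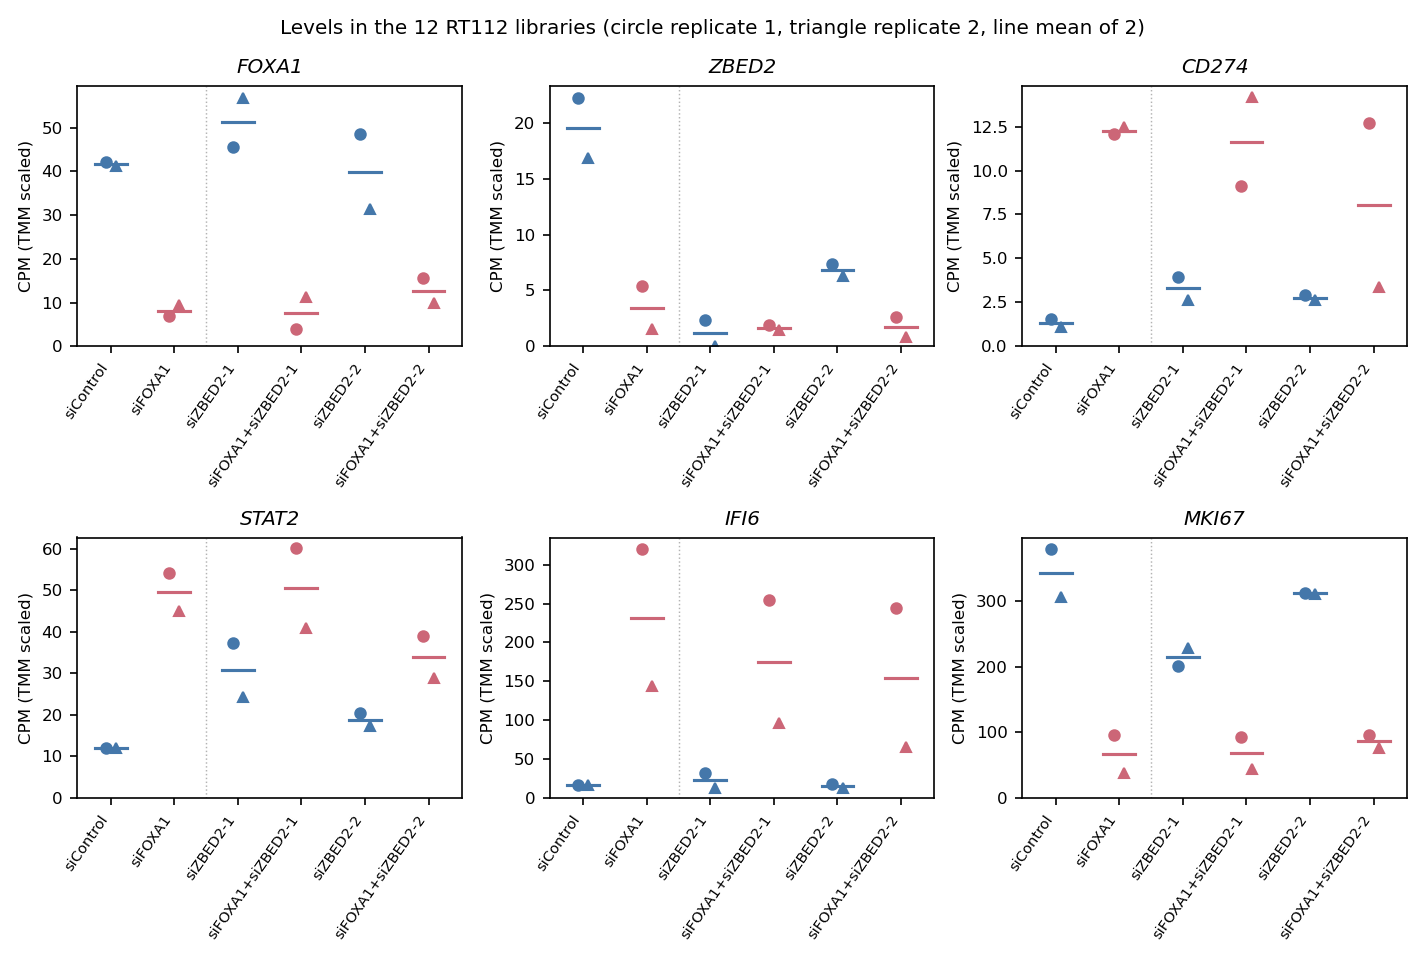
Levels of 6 genes in CPM (TMM scaled) in the 12 RT112 libraries by treatment, with replicate 1 as circles, replicate 2 as triangles, a line at the mean of 2, and red for groups with siFOXA1. FOXA1 lies at 4.04 to 15.6 CPM in the 4 double knock-down libraries and at 31.3 to 56.9 CPM in the 4 with a ZBED2 siRNA alone, IFI6 is higher and MKI67 lower in each red group than in the blue group beside it.

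With siFOXA1, 2377 of 12768 genes tested changed at an adjusted p under 0.05, which is 18.6%, and 3878 did so at an unadjusted p under 0.05. Of these 1120 rose (8.77%) and 1257 fell (9.84%), and the change was at least 2-fold in 292 that rose and 527 that fell. The median over all genes was -0.01 on the log2 scale. All 4 libraries with siFOXA1 lay above all 4 without it for 1007 genes (7.89%) and below them for 1114 (8.72%). Scaling by library size alone shifted the median of all genes to -0.0973 and left 33.1% of the calls on the rising side, against 47.1% here, and limma on TPM shifted it to -0.218 and left 13.3% there. Without siZBED2-2 replicate 2 the count was 1894.

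The genes with the smallest p that rose at least 2-fold without overlap encode products of several kinds. CPA4, a secreted carboxypeptidase, stood at 23, 19.2, 28.7 and 21.7 CPM without and at 198, 195, 197 and 210 CPM with siFOXA1. The 4 libraries of each side were tight, and CPA4 rose by 3.11 (SE 0.14, adjusted p = 2.59e-12). CLU, the extracellular chaperone clusterin, rose by 2.23 (SE 0.14, adjusted p = 1.86e-10), and MAP2, a microtubule-associated protein known from neurons, by 2.91 (SE 0.20, adjusted p = 1.92e-09). The tissue inhibitor of metalloproteases TIMP3 rose by 1.64, the keratin KRT80 by 1.14, the histone gene HIST1H2AC by 2.78, MACC1, a regulator of the MET receptor gene, by 1.52 and PGM2L1, a glucose bisphosphate synthase, by 1.56. HIST1H2AC has near-identical copies, so its reads are uncertain. GJA5, a gap junction protein, stood at 0.198, 0.664, 0.193 and 0 CPM without and at 19.1, 16, 10.3 and 0.843 CPM with siFOXA1, the largest fitted rise over 10 CPM (5.38, SE 0.80, adjusted p = 6.12e-05), and its levels without siFOXA1 are at or under the value of 3 counts. KCNK15, a potassium channel, rose by 3.87 (SE 0.70, adjusted p = 0.000447), with 0, 4.87, 0.193 and 0.174 CPM without and 15.5, 18, 17.8 and 10.5 CPM with siFOXA1.

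Genes that fell included secreted and calcium-binding proteins known from luminal and glandular epithelium. AGR2, a disulfide isomerase of secretory cells, stood at 208, 248, 163 and 156 CPM without and at 13, 17.4, 22.8 and 21.7 CPM with siFOXA1, and fell by 3.36 (SE 0.19, adjusted p = 3.56e-11). S100P, a calcium-binding protein, fell by 1.84 from 2375 ± 285 to 670.4 ± 124 CPM (SD, n = 4, adjusted p = 1.36e-11), and the fatty acid carrier FABP4 by 1.60 (adjusted p = 1.17e-09). PPDPF, a small protein named for the pancreas, fell by 2.40, from 1155, 1110, 1049 and 1009 CPM to 193.3, 206.5, 251.1 and 169.7 CPM (SE 0.12, adjusted p = 6.75e-12). TRMT112, an activator of several methyltransferases, fell by 2.30, the poly-A binding protein PABPC4 by 1.46 and the ribosome assembly factor NSA2 by 1.43. The largest falls over 10 CPM were those of F5, coagulation factor V (-5.49), the unnamed transcript AC007998.4 (-4.47), the mucosal peptide TFF1 (-3.42) and C11orf53 (-3.40). Without overlap, F5 went from 4.56, 22.8, 1.93 and 12.3 CPM to 0.637, 0, 0 and 0.211 CPM.

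**Figure D2:**
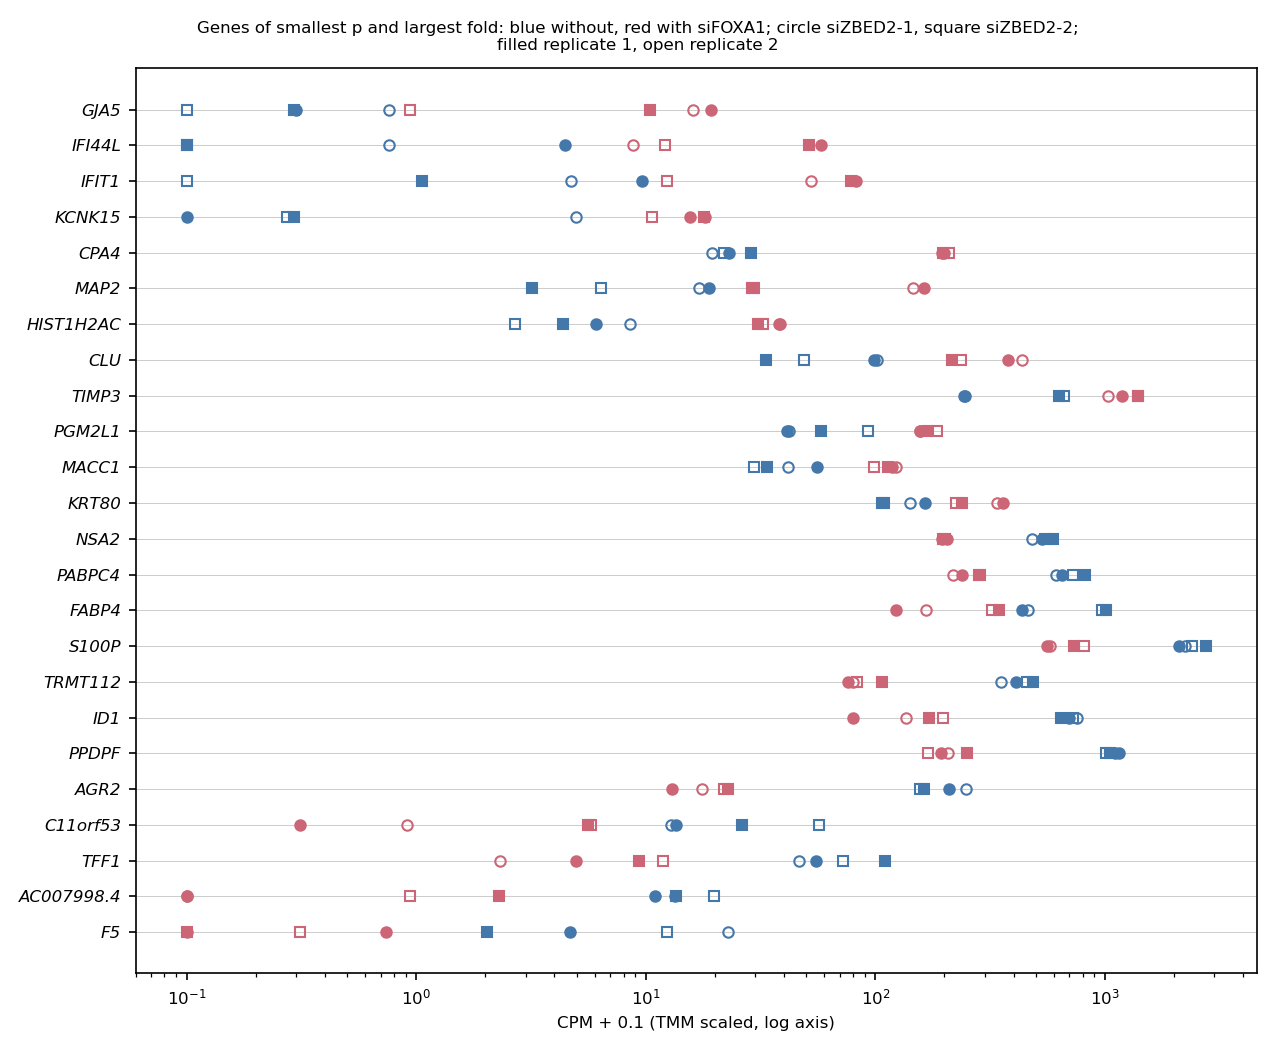
Levels of 24 genes chosen for the smallest p or the largest change, each row a gene and each point a library, on a log axis of CPM + 0.1. Red marks libraries with and blue those without siFOXA1, circles siZBED2-1, squares siZBED2-2, filled replicate 1 and open replicate 2. Red and blue do not overlap in any row, as the choice of the genes required.

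Interferon signalling was read from the ligands downward. The ligands IFNA1, IFNB1, IFNE, IFNL1, IFNL2 and IFNL3 had 0 counts in all 8 libraries. Of 27 genes of the list 18 were tested, of which 8 rose and 2 fell, with a median of 0.53 on the log2 scale. Among receptors IFNAR1 was at 0.16 (SE 0.12, adjusted p = 0.413), and the second chain of the type I receptor, IFNAR2, rose by 0.64 (adjusted p = 0.015). The kinases did not move together. JAK1 stood at 126, 134, 113 and 138 CPM without and at 71.2, 65.9, 81.6 and 81 CPM with siFOXA1 and fell by 0.77 (SE 0.13, adjusted p = 0.000212). JAK2 fell by 1.24 (SE 0.36, adjusted p = 0.019), a call lost without siZBED2-1 replicate 1 (adjusted p = 0.0561) or without siFOXA1+siZBED2-1 replicate 1 (0.0627), and TYK2 rose by 0.66 (adjusted p = 0.014).

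The transcription factors downstream of the receptors gave 5 of the 8 calls of this list. STAT2, a factor of the interferon complex, stood at 37.3, 24.3, 20.4 and 17.2 CPM without and at 60.3, 40.9, 39 and 28.9 CPM with siFOXA1. These ranges overlapped between the ZBED2 siRNAs but not within either, and STAT2 rose by 0.78 (SE 0.21, adjusted p = 0.0123), a call lost without siFOXA1+siZBED2-1 replicate 1 (0.68, adjusted p = 0.0592). IRF9, the DNA-binding part of that complex, rose by 2.01 (adjusted p = 0.011), from 6.94, 2.43, 1.93 and 1.91 CPM to 26.3, 6.27, 15.6 and 3.16 CPM, a call that was lost without replicate 1 of siFOXA1+siZBED2-1 (adjusted p = 0.133) or of siFOXA1+siZBED2-2 (adjusted p = 0.0849). IRF3 rose by 0.73 (SE 0.17, adjusted p = 0.00426) and STAT3 by 0.43 (adjusted p = 0.015). IRF1, the factor most tied to interferon gamma, was at 0.13 (SE 0.18, adjusted p = 0.682). Among negative regulators USP18 rose by 1.55 (adjusted p = 0.016), a call lost without siFOXA1+siZBED2-1 replicate 1 (adjusted p = 0.109), and SOCS1, SOCS3 and PTPN2 were not called. Without that library 5 members of the list rose in place of 8. On TPM with limma 0 of the 8 kept the call. Calls of 1 or more of IFNAR2, TYK2 and STAT3 were also lost without siFOXA1+siZBED2-2 replicate 1 (TYK2, adjusted p = 0.0577), siFOXA1+siZBED2-2 replicate 2 (IFNAR2, 0.0901), siFOXA1+siZBED2-1 replicate 2 (STAT3, 0.0608), siZBED2-1 replicate 2 (TYK2, 0.0586, and STAT3, 0.0508) and siZBED2-2 replicate 2 (STAT3, 0.0555).

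Antiviral effectors act against viruses at many steps, from the binding of viral RNA to the blocking of release. Of 52 tested members 22 rose and 1 fell, with a median of 0.72 against -0.01 over all genes. All 4 libraries with siFOXA1 exceeded all 4 without for 12 members (7.89% over all genes). The medians of the 4 pairs of libraries with the same ZBED2 siRNA and replicate number were 0.87 and 1.18 in replicate 1 and 0.44 and 0.34 in replicate 2 (siZBED2-1 and siZBED2-2), so the list was higher in both batches. IFI6, a protein of the endoplasmic reticulum and mitochondria, stood at 31.7, 12.8, 17.7 and 13 CPM without and at 254, 96.1, 244 and 65.6 CPM with siFOXA1. It rose by 3.14 (SE 0.34, adjusted p = 1.28e-06), again with replicate 1 the higher on the siFOXA1 side. IFIT1, which binds uncapped viral RNA, went from 9.52, 4.65, 0.965 and 0 CPM to 82.4, 52.6, 78.5 and 12.2 CPM, a rise of 4.21 (SE 0.55, adjusted p = 1.31e-05). IFI44L, an interferon-induced protein, went from 4.36, 0.664, 0 and 0 CPM to 57.8, 8.7, 51.1 and 12 CPM, a fitted 4.87 (SE 0.73, adjusted p = 6.46e-05). IFIT3, an IFIT1 partner, rose by 1.94, the ubiquitin-like ISG15 by 1.71, the 2′-5′ oligoadenylate synthase OAS2 by 3.84, RSAD2 (viperin) by 3.53, XAF1, an antagonist of XIAP, by 3.01, the helicase DDX60 by 2.07 and PARP14 by 1.19, with adjusted p from 8.99e-05 to 0.00225. ISG15 stood at 75.7, 39.6, 78.5 and 50.2 CPM without and at 310, 102, 286 and 98.9 CPM with siFOXA1. SAMD9, a restriction factor of poxviruses, was the member that fell, by 0.92 (SE 0.14, adjusted p = 8.2e-05), from 233, 283, 216 and 256 CPM to 127, 102, 174 and 122 CPM. MX1 (-0.52), OAS1 (-0.05), BST2 (0.24), GBP1 (0.09) and GBP2 (-0.14) were not called. Without siFOXA1+siZBED2-2 replicate 1 the members that rose numbered 15, with a median of 0.62, and on TPM with limma they numbered 13, with a median of 0.40.

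Promoters of genes that rose with the smallest p in this list and hold the interferon response motif are printed, because the motif is the letters to which the interferon complex binds. The 250 bases before the gene start are given 5′ to 3′ on the strand of the gene, from RefSeq on GRCh38.p14, and capitals mark the motif, read as GAAA, any 2 bases, then GAAA, on either strand. IFI6 is at chr1:27672193-27672442 on the minus strand, IFIT1 at chr10:89392373-89392622 on the plus strand and IFI44L at chr1:78620198-78620447 on the plus strand.
IFI6: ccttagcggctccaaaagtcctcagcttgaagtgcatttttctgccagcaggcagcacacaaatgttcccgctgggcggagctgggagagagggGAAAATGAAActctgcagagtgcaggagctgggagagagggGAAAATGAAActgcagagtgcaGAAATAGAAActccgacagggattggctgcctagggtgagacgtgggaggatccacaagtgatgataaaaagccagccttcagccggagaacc
IFIT1: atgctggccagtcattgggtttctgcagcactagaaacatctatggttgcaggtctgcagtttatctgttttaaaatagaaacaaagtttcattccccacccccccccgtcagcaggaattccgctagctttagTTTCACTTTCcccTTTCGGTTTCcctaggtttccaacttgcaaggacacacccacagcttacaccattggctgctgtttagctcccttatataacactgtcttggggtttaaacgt
IFI44L: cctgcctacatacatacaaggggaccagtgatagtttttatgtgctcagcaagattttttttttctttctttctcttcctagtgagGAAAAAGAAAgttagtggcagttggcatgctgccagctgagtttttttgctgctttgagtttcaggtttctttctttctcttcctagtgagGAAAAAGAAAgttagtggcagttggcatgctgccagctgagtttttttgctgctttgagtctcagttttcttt
IFI6 holds 3 matches, IFIT1 and IFI44L 2 each. Among 27305 promoters 3.07% hold the motif. It was found in 208 of 9641 genes tested (2.16%) and in 25 of the 43 tested antiviral effectors with a promoter (58.1%). These 25 include 13 of the 18 that rose (72.2%) and also the 1 that fell. In the interferon signalling list the motif was in 1 of 13 (7.69%), and in 0 of the 4 with a promoter that rose. A match describes letters in this window and is not a binding site.

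Sensors of nucleic acids start interferon production. Of 15 tested 2 rose, against 8.77% of all genes, and 0 fell (median 0.42). DDX58, which encodes the RNA sensor RIG-I, stood at 6.94, 8.63, 5.59 and 4.34 CPM without and at 29.3, 19.4, 32 and 6.96 CPM with siFOXA1 and rose by 1.80 (SE 0.38, adjusted p = 0.0017). IFIH1, the RNA sensor MDA5, rose by 1.5 (SE 0.40, adjusted p = 0.0115), lost without siFOXA1+siZBED2-2 replicate 1 (1.01, adjusted p = 0.0797). Their adaptor MAVS was at 0.03 (SE 0.11, adjusted p = 0.907). MHC class I presentation showed 0 calls among 11 tested members by edgeR. DESeq2 called 2 higher, edgeR 1 with no filter or with the replicate number as a block, and limma on TPM 0. The changes ran from -0.23 to 2.41, the highest in an immunoproteasome or activator gene, and 1 member was called higher with siZBED2-2. B2M, the light chain, was at 0.09 and PSME1, a proteasome activator, at 0.26 (SE 0.10, adjusted p = 0.0828).

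**Figure D3:**
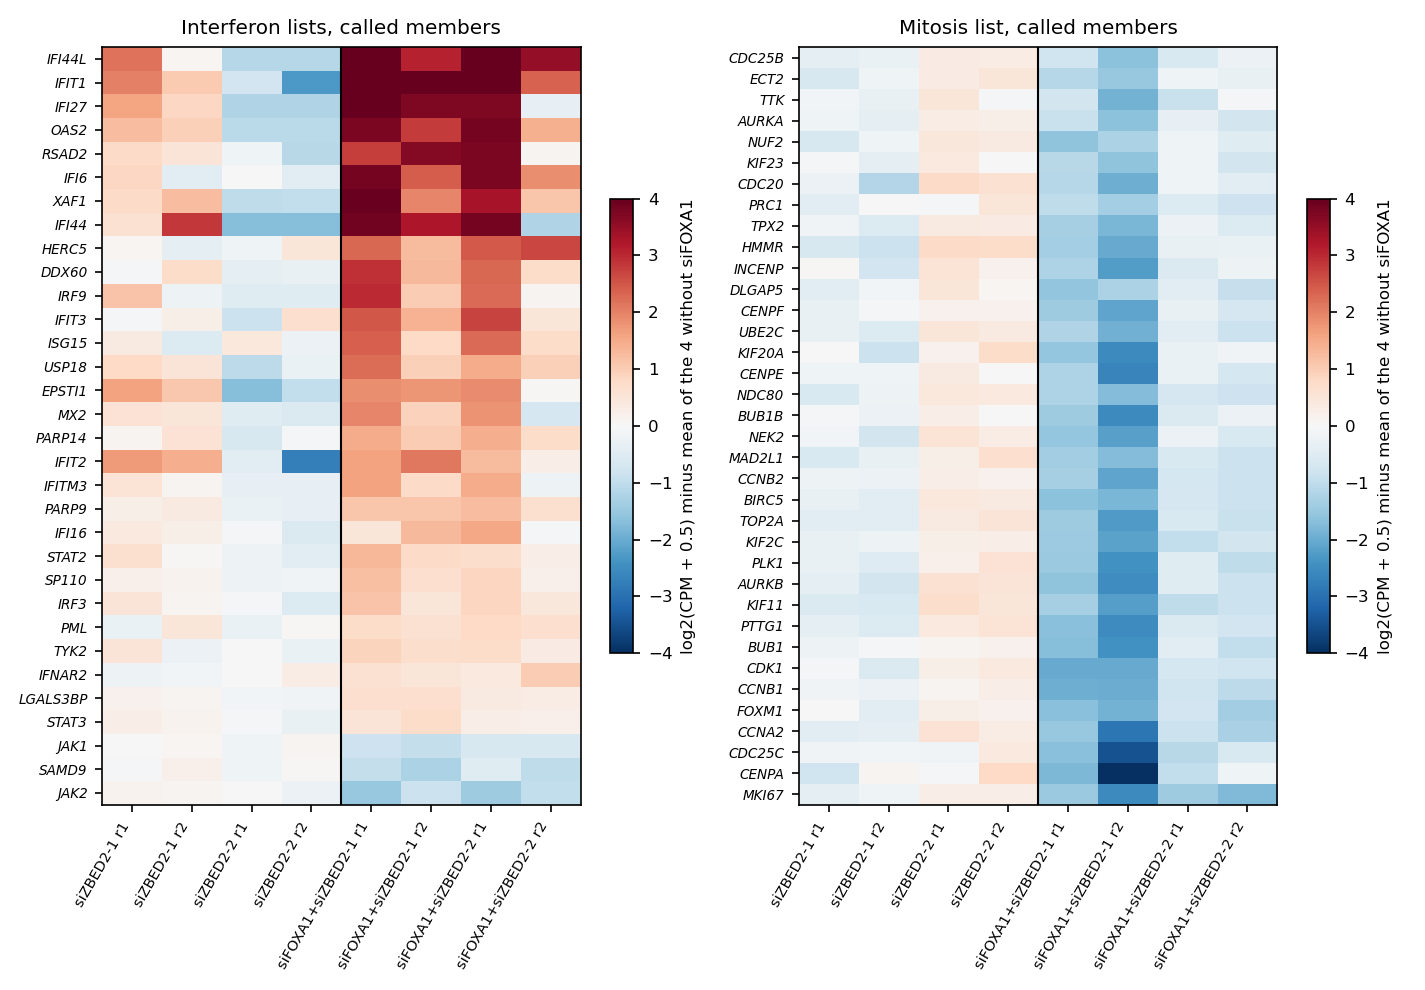
Members with a call in the interferon signalling and antiviral lists (left) and in the mitosis list (right), in rows, against the 8 libraries in columns. Colour is log2(CPM + 0.5) minus the mean of the 4 libraries without siFOXA1, red higher and blue lower. Interferon members are mostly red right of the line, with JAK1, JAK2 and SAMD9 blue and paler or no red in siFOXA1+siZBED2-2 replicate 2, and mitosis members are mostly blue there, deepest in siFOXA1+siZBED2-1 replicate 2.

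Ligands of immune checkpoints were mostly higher. Of 7 tested members of a list of 14, 4 rose and 1 fell. CD274, which encodes PD-L1, stood at 3.97, 2.65, 2.89 and 2.61 CPM without and at 9.14, 14.2, 12.7 and 3.37 CPM with siFOXA1. The lowest value with siFOXA1 lay under the highest without it, and CD274 rose by 1.67 (SE 0.49, adjusted p = 0.0188). This call was lost without siFOXA1+siZBED2-2 replicate 1 (1.26, adjusted p = 0.157) or siFOXA1+siZBED2-1 replicate 2 (1.51, adjusted p = 0.0747). VTCN1, which encodes B7-H4, rose by 1.95 (SE 0.28, adjusted p = 4.09e-05), from 36.9, 36.5, 7.91 and 2.95 CPM to 95, 87, 29.8 and 47.2 CPM. It was lower with siZBED2-2 than with siZBED2-1 in both conditions. LGALS9, galectin 9, rose by 1.25 (SE 0.21, adjusted p = 0.000237) and the adhesion ligand NECTIN2 by 0.65 (adjusted p = 0.0011). CD276, which encodes B7-H3, fell by 0.73 (adjusted p = 0.0193), and the call was lost without siZBED2-1 replicate 1 (adjusted p = 0.0837), siFOXA1+siZBED2-2 replicate 1 (0.067), siZBED2-2 replicate 2 (0.0511) or siFOXA1+siZBED2-1 replicate 2 (0.0568). CD47, the signal that blocks phagocytosis, was at -0.14 (adjusted p = 0.52). Of 27 chemokines and cytokines 10 were tested and 2 rose, against 8.77% over all genes. IL1B, which encodes interleukin 1 beta, rose by 1.11 (adjusted p = 0.0157), a call lost without siFOXA1+siZBED2-1 replicate 2 (0.98). CCL28 was the other, from 1.19, 0.221, 0 and 0 CPM to 5.52, 4.65, 2.41 and 0.211 CPM. It rose by 3.45 (SE 1.19, adjusted p = 0.047), and the call was lost on leaving out any library other than siZBED2-1 replicate 1 or siFOXA1+siZBED2-2 replicate 2, with adjusted p for CCL28 from 0.103 to 0.199. CXCL10, an interferon-induced chemokine, had 34 counts in the 8 libraries and was not tested, and IL6, TNF and CXCL1 had 0.

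In the NF-kB list 2 of 15 tested members rose and 2 fell, against 8.77% and 9.84% over all genes, with a median of 0.07. These counts are not read as a change of the list. NFKBIZ, a nuclear regulator of the pathway, stood at 83.3, 107, 62.3 and 43.6 CPM without and at 41, 32.4, 34 and 22.6 CPM with siFOXA1 and fell by 1.14 (SE 0.19, adjusted p = 0.000185), and TNIP1, an inhibitor of NF-kB activation, fell by 0.66 (SE 0.16, adjusted p = 0.00529). NFKBIA, which encodes the inhibitor of NF-kB, was at 0.03 and not called.

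The cell cycle genes went down. All 38 members of the mitosis list were tested, 36 fell and 0 rose, with a median of -1.13. All 4 libraries with siFOXA1 lay below all 4 without for 20 of them (8.72% over all genes). MKI67, the proliferation antigen Ki-67, stood at 201, 229, 313 and 311 CPM without and at 92.2, 44.1, 95.8 and 76.1 CPM with siFOXA1. It fell by 1.76 (SE 0.16, adjusted p = 1.8e-07). The mitotic cyclin CCNB1 went from 131, 125, 158 and 175 CPM to 37.2, 36.6, 84.2 and 70.8 CPM (-1.44, SE 0.15, adjusted p = 7.25e-07), and its kinase CDK1 fell by 1.39 (adjusted p = 1.28e-06). TOP2A, the topoisomerase of dividing cells, fell by 1.26, BIRC5 (survivin) by 1.25, PTTG1 (securin) by 1.36, the kinase PLK1 by 1.32, AURKB by 1.34 and the mitotic transcription factor FOXM1 by 1.44, with adjusted p from 8.18e-07 to 7.11e-05. Levels of these genes were higher with siZBED2-2 than with siZBED2-1 for MKI67, CCNB1 and TOP2A, on both sides for CCNB1 and TOP2A. BUB3 (-0.01, adjusted p = 0.953) and ESPL1 (-0.47, adjusted p = 0.295) were the members not called. Fewer dividing cells and less RNA of these genes per cell cannot be told apart in bulk libraries.

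Promoters of the mitosis genes MKI67 and TOP2A are printed, because they hold the cell cycle homology motif to which the DREAM and MuvB complexes bind. The windows are 250 bases before the start on the gene's strand, MKI67 at chr10:128126424-128126673 and TOP2A at chr17:40417897-40418146, both on the minus strand of GRCh38.p14 (RefSeq). Capitals mark TTTGAA or TTCGAA on either strand.
MKI67: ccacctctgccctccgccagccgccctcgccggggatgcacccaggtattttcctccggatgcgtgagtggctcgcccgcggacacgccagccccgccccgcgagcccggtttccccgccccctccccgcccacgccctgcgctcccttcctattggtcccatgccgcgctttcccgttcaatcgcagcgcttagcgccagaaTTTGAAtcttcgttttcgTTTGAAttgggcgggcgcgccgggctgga
TOP2A: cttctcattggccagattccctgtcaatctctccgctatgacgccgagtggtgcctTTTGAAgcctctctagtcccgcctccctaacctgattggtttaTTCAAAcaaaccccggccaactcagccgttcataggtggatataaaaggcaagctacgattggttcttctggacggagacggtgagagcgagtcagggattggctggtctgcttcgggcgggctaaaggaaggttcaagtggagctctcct
Each holds 2 matches. The motif is in 14.6% of all 27305 promoters and in 9.67% of those of the genes tested, in 16 of 31 mitosis genes (51.6%) and in 2 of 28 DNA replication genes (7.14%). The E2F motif, bound by the factors that drive entry into S phase, is in 2.79% of all promoters, in 11 of 28 replication genes (39.3%) and in 1 of 31 mitosis genes (3.23%). These shares describe letters and not factors.

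DNA replication genes fell with them. Of 32 tested, 21 fell and 0 rose (median -0.73). RRM2, the regulated subunit of ribonucleotide reductase, stood at 151, 148, 287 and 312 CPM without and at 53.3, 30.3, 94.3 and 78.2 CPM with siFOXA1 (-1.82, SE 0.15, adjusted p = 1.6e-08). TYMS, thymidylate synthase, fell by 1.97 (adjusted p = 0.000153), the sliding clamp PCNA by 1.09 (adjusted p = 0.00011), and the helicase subunits MCM2, MCM3, MCM4 and MCM7 by 0.87, 0.72, 0.75 and 0.77. MCM5 (-0.19, adjusted p = 0.463) and MCM6 (-0.42) were not called. Of 24 tested regulators of G1 7 fell and 1 rose, against 9.84% and 8.77% over all genes. CCNE2, a cyclin of S phase entry, fell by 1.94 (SE 0.32, adjusted p = 0.000208), CCNE1 by 1.66 (adjusted p = 0.0028) and TFDP1, the E2F dimer partner, by 1.61 (SE 0.21, adjusted p = 1.34e-05). CDK6, a kinase of early G1, went the other way, from 74.6, 72.8, 75.2 and 102 CPM to 189, 149, 188 and 152 CPM (1.07, SE 0.14, adjusted p = 1.11e-05). CCND1 (-0.07), CDK2 (-0.09) and the CDK inhibitor CDKN1A (-0.27, SE 0.17, adjusted p = 0.305) were not called.

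Luminal identity genes changed in both directions, where 8.77% of all genes rose and 9.84% fell. Of 17 tested luminal transcription factors 5 fell and 0 rose (median -0.37). FOXQ1, a forkhead factor, stood at 153, 205, 109 and 134 CPM without and at 33.8, 46.7, 43.6 and 42.2 CPM with siFOXA1 and fell by 1.83 (SE 0.16, adjusted p = 1.12e-07). KLF5 fell by 0.88 (SE 0.10, adjusted p = 3.21e-06), the Notch target HES1 by 0.81 (adjusted p = 7e-05) and GATA3, the main luminal partner of FOXA1, by 0.49 (SE 0.11, adjusted p = 0.00299). The nuclear receptor PPARG fell by 0.52 (adjusted p = 0.012), a call lost without siZBED2-2 replicate 2 (-0.47, adjusted p = 0.0546). ELF3 (-0.02, adjusted p = 0.916) and RXRA (-0.08, adjusted p = 0.747) were not called. Among 30 tested differentiation genes 12 fell and 5 rose. With AGR2, TFF1 and FABP4, the surface antigen PSCA fell by 2.08 (SE 0.16, adjusted p = 6.17e-09), from 172, 171, 91.1 and 84.6 CPM to 37.6, 29.9, 22.2 and 28.2 CPM. The receptor FGFR3, an oncogene of luminal papillary tumours, fell by 0.88 (SE 0.17, adjusted p = 0.000885), the keratin KRT13 by 0.91 and the uroplakin UPK1B by 0.58. The members that rose included the receptor ERBB3 by 1.16 (SE 0.12, adjusted p = 8.81e-07), the tight junction claudins CLDN4 by 0.90 and CLDN7 by 0.88, and CDH1, which encodes E-cadherin, by 0.42 (adjusted p = 0.0135), the last lost without siFOXA1+siZBED2-1 replicate 2 (0.31, adjusted p = 0.0852). KRT18 (-0.22), KRT19 (-0.09) and UPK2 (0.04) were not called. The forkhead motif, TGTTTAC or TGTTTGC on either strand, was in 6.05% of all promoters, in 1 of 13 luminal factors (7.69%) and in 0 of 17 differentiation genes, and no match says only that these letters are not in this window.

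Basal and squamous genes also changed in both directions, where 8.77% of all genes rose and 9.84% fell. Of 32 tested 9 fell and 5 rose (median -0.16). TP63, the master factor of basal epithelium, stood at 19.4, 19, 20.3 and 25.7 CPM without and at 8.5, 3.64, 5.7 and 12.6 CPM with siFOXA1 and fell by 1.49 (adjusted p = 0.0025). DSG2, a desmosomal cadherin, fell by 0.87 (SE 0.11, adjusted p = 9.15e-06), S100A2 by 0.82 (SE 0.12, adjusted p = 5.29e-05), the keratin KRT17 by 0.56 (SE 0.11, adjusted p = 0.00123) and the glucocorticoid receptor NR3C1 by 0.64 (adjusted p = 0.0043). PKP1, a desmosomal plaque protein, rose by 0.82 (SE 0.16, adjusted p = 0.00123) and SFN (14-3-3 sigma) by 0.45 (SE 0.11, adjusted p = 0.00642). KRT5 rose by 0.57 (adjusted p = 0.013), lost without siZBED2-1 replicate 2 (0.46, adjusted p = 0.0534). Without siZBED2-1 replicate 2 or siZBED2-2 replicate 2 the members that rose numbered 3. KRT6A (-0.44), KRT14 (0.24) and EGFR (0.13) were not called. Of 11 mesenchymal genes 3 reached the filter, and FN1 (fibronectin) was at 0.03 (SE 0.22, adjusted p = 0.95).

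**Figure D4:**
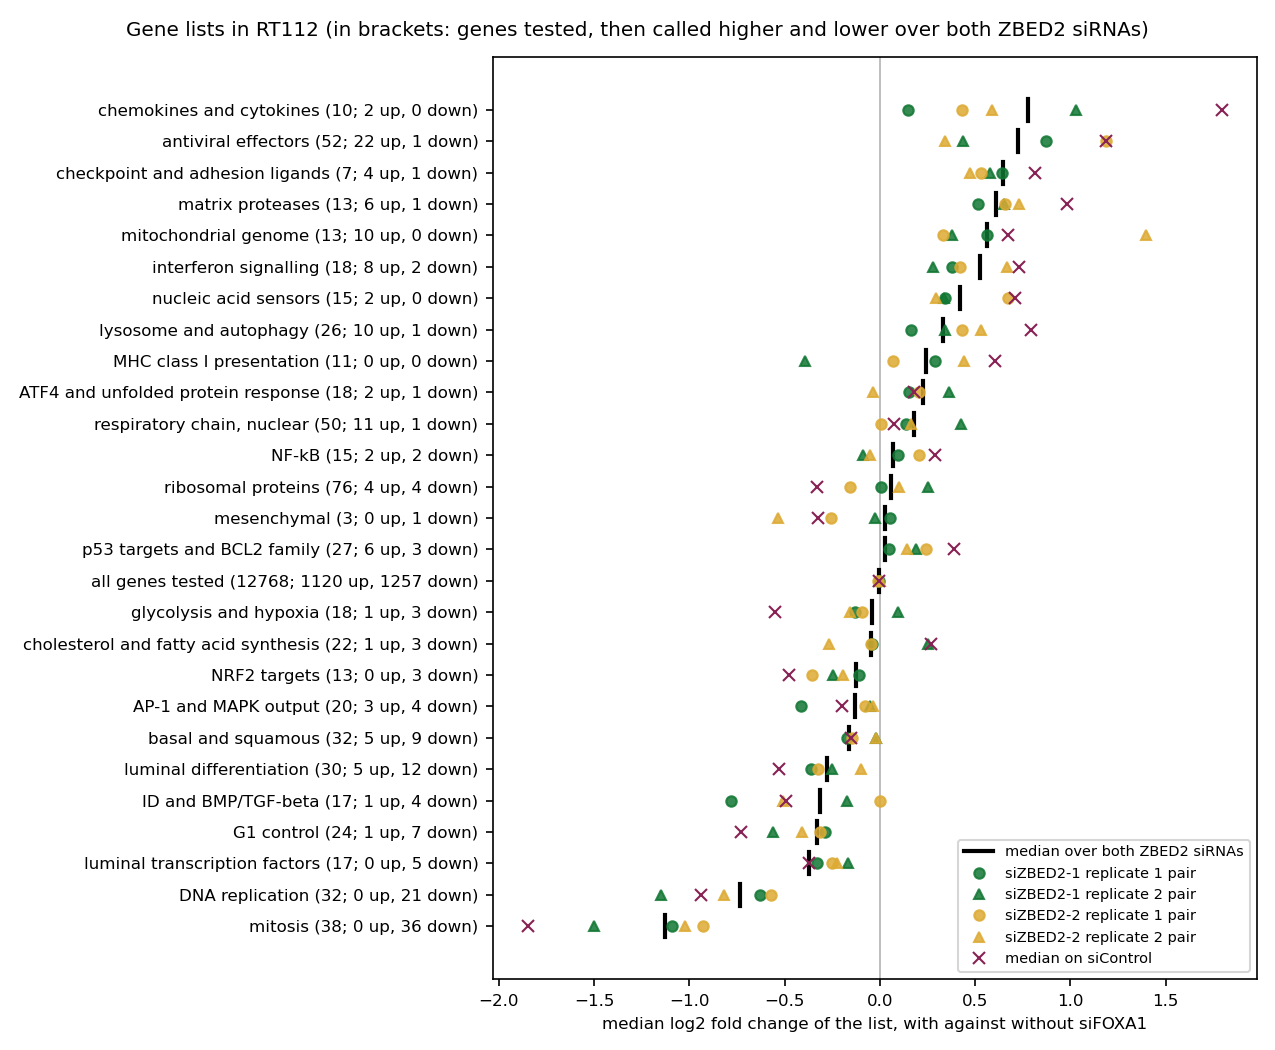
Median log2 change with siFOXA1 of each gene list, over both ZBED2 siRNAs (black bar), in the 4 pairs of libraries with the same ZBED2 siRNA and replicate number (green siZBED2-1, yellow siZBED2-2, circles replicate 1, triangles replicate 2) and on siControl (cross). The bars of mitosis and antiviral effectors lie at -1.13 and 0.72, and their crosses farther from 0, at -1.85 and 1.19. In the test of that difference 1 mitosis gene and 0 antiviral effectors were called.

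Targets of BMP and MAPK signalling changed in both directions. For the counts below, the shares over all genes were 8.77% that rose and 9.84% that fell. ID1, an inhibitor of differentiation factors and a direct BMP target, stood at 697, 753, 646 and 727 CPM without and at 80.1, 136, 172 and 196 CPM with siFOXA1. The gap between the sides was wide, and ID1 fell by 2.32 (SE 0.16, adjusted p = 2.12e-09). ID2 fell by 1.57 (adjusted p = 6.1e-06), ID3 by 0.65 (adjusted p = 0.00074) and the receptor TGFBR2 by 1.41 (SE 0.16, adjusted p = 1.69e-06). SMAD6 (-0.40) and SMAD7 (-0.37), feedback inhibitors of the pathway, were not called. Of 17 tested members 4 fell and 1 rose, BMP7 (0.78, adjusted p = 0.0297), whose call was lost without siZBED2-2 replicate 1 (adjusted p = 0.0588), siFOXA1+siZBED2-1 replicate 1 (0.0936), siZBED2-1 replicate 2 (0.115) or siFOXA1+siZBED2-2 replicate 2 (0.0609). In the MAPK list of 20 tested, 3 rose and 4 fell. The ERK phosphatase DUSP6 fell by 1.21 (SE 0.14, adjusted p = 1.84e-06) and the ERK target ETV4 by 1.43 (SE 0.26, adjusted p = 0.000451). JUND stood at 94.2, 92.5, 97 and 84.6 CPM without and at 220, 256, 183 and 177 CPM with siFOXA1 and rose by 1.17 (SE 0.12, adjusted p = 8.55e-07). JUN rose by 0.73 (adjusted p = 0.000305), JUNB fell by 0.56 (adjusted p = 0.0035), and TGFA, an EGFR ligand, rose by 1.13 (adjusted p = 0.002).

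Genes of matrix remodelling, cell survival and lysosomes were called in both directions. The shares over all genes were 8.77% that rose and 9.84% that fell. Of 13 tested matrix protease genes 6 rose and 1 fell (median 0.61). MMP14, a membrane-bound collagenase, stood at 62.7, 67.7, 47.8 and 78 CPM without and at 143, 158, 167 and 173 CPM with siFOXA1 and rose by 1.32 (SE 0.14, adjusted p = 1.28e-06). TIMP2 rose by 0.74, ADAM17 by 0.59 and PLAUR, the urokinase receptor, by 0.61. In the list of p53 targets and BCL2 family members 6 of 27 rose and 3 fell, which is not read as a change of the list. A member that rose lost its call on leaving out any single library, and others lost theirs on leaving out some of them. The pro-apoptotic PMAIP1 (NOXA) rose by 1.65 (SE 0.34, adjusted p = 0.00146) and SESN2 (sestrin 2) by 0.93 (SE 0.20, adjusted p = 0.00217), while BAD fell by 0.74 (SE 0.15, adjusted p = 0.000993), and MDM2 was at -0.23 (adjusted p = 0.425). In the lysosome and autophagy list 10 of 26 rose and 1 fell. TFEB, its master factor, rose by 1.51 (SE 0.21, adjusted p = 2.91e-05), the sialic acid exporter SLC17A5 by 1.31 (SE 0.14, adjusted p = 8.51e-07) and SQSTM1 (p62) by 0.63 (adjusted p = 0.00047). LAMP1 was at 0.12 (adjusted p = 0.468).

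In the lists of metabolism and stress response few members were called. FADS1, a fatty acid desaturase, stood at 14.9, 27.7, 12.5 and 22.9 CPM without and at 3.82, 2.43, 1.97 and 1.9 CPM with siFOXA1 and fell by 2.96 (SE 0.38, adjusted p = 1.21e-05), and SCD fell by 0.64 (SE 0.10, adjusted p = 0.000159). SREBF2, the factor of cholesterol synthesis, rose by 0.66 (SE 0.15, adjusted p = 0.00399). AKR1C1 and AKR1C2, aldo-keto reductases, fell by 1.45 and 1.48 (adjusted p = 3.49e-07 and 4.07e-08), with reads that cannot be fully parted because the genes are near copies. The hypoxia gene NDRG1 fell by 1.08 (SE 0.16, adjusted p = 5.77e-05), and GAPDH was at 0.05 (adjusted p = 0.826). Over all genes 8.77% rose and 9.84% fell, and the small counts that follow are not read as changes of whole lists. Of 22 tested genes of cholesterol and fatty acid synthesis 1 rose and 3 fell. Those 3 were among 7 fatty acid genes, and 0 of 15 cholesterol genes fell. Of 18 genes of glycolysis and hypoxia 1 rose and 3 fell, and of 13 NRF2 targets 0 rose and 3 fell. Of 18 genes of the ATF4 and unfolded protein response 2 rose and 1 fell. The chaperone genes DNAJB9 (1.27, SE 0.29, adjusted p = 0.00343) and CALR (0.35, adjusted p = 0.00972) were the 2 that rose in the last.

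Transcripts of mitochondria rose in part. Of the 13 protein-coding genes of the mitochondrial genome 10 rose and 0 fell (median 0.56), and 2 rose with DESeq2 and 2 with limma on TPM. MT-ND2 stood at 5846, 5763, 5510 and 2496 CPM without and at 10311, 9134, 9543 and 8208 CPM with siFOXA1 (0.95, SE 0.16, adjusted p = 0.000179). The low value is that of siZBED2-2 replicate 2, without which the median of the list was 0.32, with 10 calls. These genes share the mitochondrial share of counts given above, whose part in the result was not tested. Of 50 nuclear genes of the respiratory chain 11 rose and 1 fell, NDUFA4 (-0.56, SE 0.11, adjusted p = 0.00146). The count that rose was 5 without siZBED2-1 replicate 1, 5 without siZBED2-1 replicate 2, 7 without siZBED2-2 replicate 2, 2 without siFOXA1+siZBED2-1 replicate 2 and 6 without siFOXA1+siZBED2-2 replicate 2. With library size alone 2 rose and 2 fell, and with limma on TPM 0 rose and 2 fell. Among 76 ribosomal protein genes 4 rose and 4 fell, with a median of 0.06 that turned to -0.03 with library size alone and to -0.20 with limma on TPM. Leaving out 1 library gave 1 to 7 that rose, the fewest without siFOXA1+siZBED2-1 replicate 2, and 1 to 6 that fell, the fewest without replicate 1 of siZBED2-2 or of siFOXA1+siZBED2-2. DESeq2 gave 10 and 7, the replicate number as a block 8 and 7, library size alone 0 and 9, and limma on TPM 0 and 8. RPS2, which has many pseudogene copies, fell by 1.35 (SE 0.11, adjusted p = 1.54e-08), from 1751, 1565, 2108 and 1552 CPM to 688.8, 722.8, 692.6 and 621.9 CPM.

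The effect of siFOXA1 was then taken apart by ZBED2 siRNA. With siZBED2-1 1342 genes changed (10.5%, 607 higher and 735 lower) and with siZBED2-2 1141 (8.94%, 554 higher and 587 lower). These comparisons set different libraries against each other. They were fitted in the same model with a shared estimate of spread, so their calls are not fully independent. Called in both were 571 genes, 42.5% of the first list and 50% of the second, all 571 in one direction, 233 higher and 338 lower. Across the 12768 genes the changes correlated at r = 0.341, as a description. IFI6 rose by 2.96 with siZBED2-1 and by 3.33 with siZBED2-2, and MKI67 fell by 1.66 and 1.86. Of the antiviral effectors 13 rose with siZBED2-1 and 21 with siZBED2-2, and of the mitosis genes 32 and 21 fell. The count with siZBED2-1 was 832 without siZBED2-1 replicate 1, 667 without siZBED2-1 replicate 2 and 852 without siFOXA1+siZBED2-1 replicate 2. With siZBED2-2 it was 734 without siZBED2-2 replicate 2 and 603 without siFOXA1+siZBED2-2 replicate 2.

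A test of the difference between the ZBED2 siRNAs called 6 genes (0.047%), with 1098 at an unadjusted p under 0.05 44 by DESeq2 and 37 with the replicate number as a block. TXNIP, an inhibitor of thioredoxin and of glucose uptake, stood at 824 and 1076 CPM with siZBED2-1 and fell to 177 and 155 CPM with siFOXA1 added, while it stood at 521 and 554 CPM with siZBED2-2 and at 491 and 406 CPM with siFOXA1 added. The difference was -2.25 (SE 0.21, adjusted p = 3.31e-06). GPRC5A, an orphan receptor induced by retinoic acid, fell with siZBED2-1 by 1.39 and was at 0.08 with siZBED2-2 (difference -1.47, SE 0.22, adjusted p = 0.00465). Before siFOXA1 it stood at 552 and 448 CPM with siZBED2-1, 158 and 133 CPM with siZBED2-2 and 175 and 170 CPM in siControl. With siFOXA1 added it stood at 182 and 200 CPM with siZBED2-1 and at 166 and 141 CPM with siZBED2-2. ANKRD1, a target of YAP, stood at 130 and 113 CPM with siZBED2-1 against 8.68 and 11.8 CPM with siZBED2-2 before any FOXA1 siRNA, and at 89.4 and 72.2 against 43.2 and 25.1 CPM with it (difference -2.31, SE 0.36, adjusted p = 0.00465). TIMP3 rose with both, by 2.18 and 1.11 (difference 1.07, SE 0.18, adjusted p = 0.00768). Before siFOXA1 it stood at 243 and 247 CPM with siZBED2-1, 631 and 661 CPM with siZBED2-2 and 597 and 529 CPM in siControl. With siFOXA1 added it stood at 1188 and 1034 CPM with siZBED2-1 and at 1397 and 1396 CPM with siZBED2-2. DAB2, an endocytic adaptor, and MXD4, a MYC antagonist, completed the 6 and were named after their values were seen. The count was 10, 17, 11, 49 and 18 without replicate 1 of siZBED2-1, of siFOXA1+siZBED2-1, of siFOXA1+siZBED2-2 and of siZBED2-2 and without siZBED2-2 replicate 2, and it was 20 and 26 without replicate 2 of siFOXA1+siZBED2-1 and of siFOXA1+siZBED2-2.

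**Figure D5:**
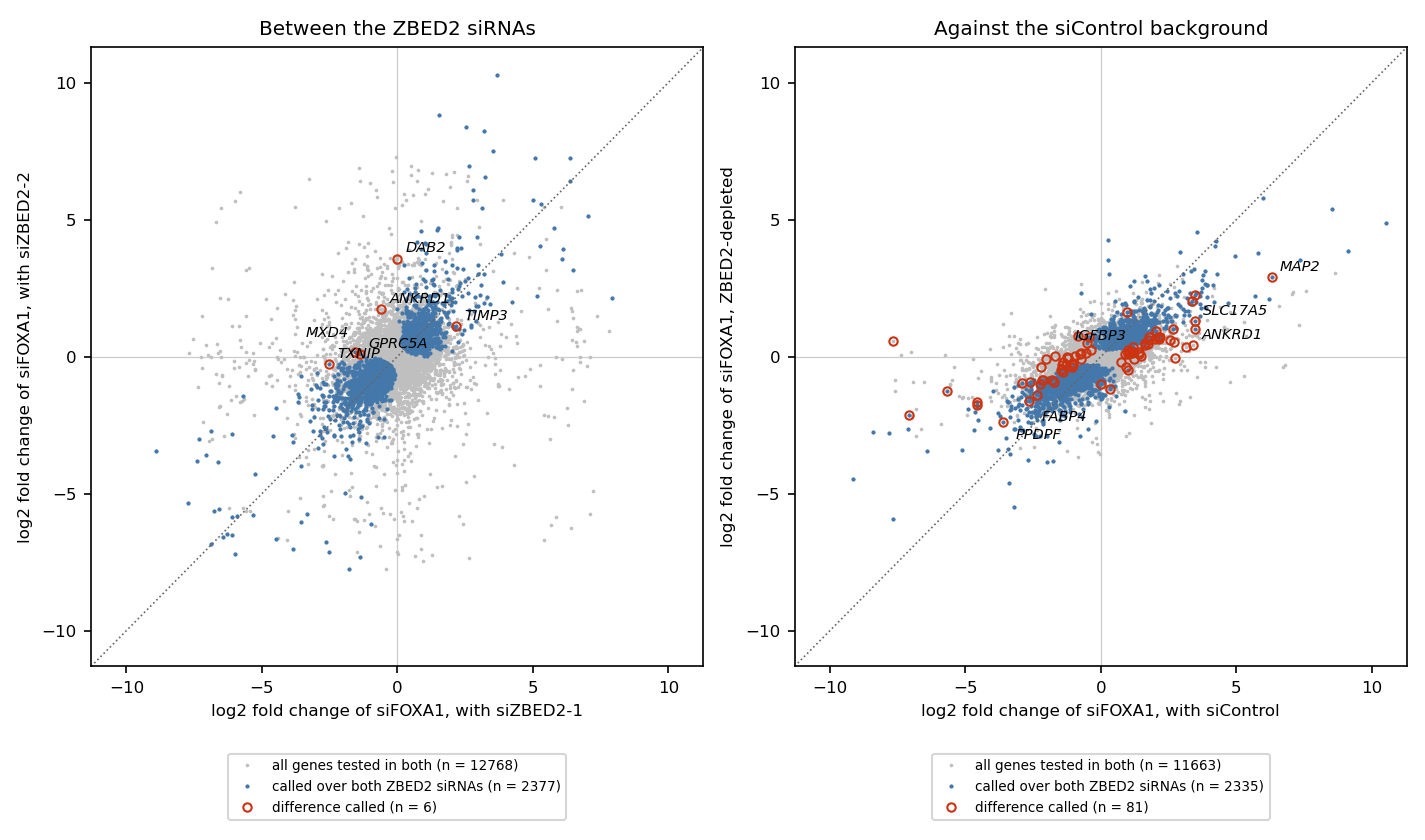
Log2 change with siFOXA1 of each gene with siZBED2-1 against siZBED2-2 (left) and with siControl against both ZBED2 siRNAs (right). Grey points are all genes tested in both, blue those called over both ZBED2 siRNAs (2377 left, 2335 right), and red circles those whose difference was called (6 left, 81 right). The dotted line marks equal change, and on the right most red circles lie nearer to 0 on the vertical than on the horizontal axis.

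The same siFOXA1 without a ZBED2 siRNA was set against siControl, with 2 libraries a side, and is called siFOXA1 on siControl here. It changed 2935 of 11855 genes (24.8%, 1486 higher and 1449 lower), a count of 1793 without siControl replicate 1 and of 1576 without siControl replicate 2. FOXA1 itself had 192 and 225 counts in siControl and 34 and 44 counts in siFOXA1. Whether the extent of the FOXA1 knock-down goes with the sizes of change below was not tested. The labels do not say whether these siFOXA1 libraries also received a control siRNA. A single against a double knock-down therefore cannot be told apart from the ZBED2 siRNA itself, and this was not tested. Of 11663 genes tested on both backgrounds 2335 were called with and 2910 without a ZBED2 siRNA. In both lists were 1572 genes, 67.3% of the first and 54% of the second, and 1570 of them moved one way. Of the 1572, 1428 changed less in ZBED2-depleted cells, and over genes called on siControl the median ratio of the log2 changes, ZBED2-depleted over siControl, was 0.525. Over genes called in ZBED2-depleted cells the median of siControl over ZBED2-depleted was 1.23, so the size of the contrast depends on which side chose the genes. Called on siControl, siZBED2-1 and siZBED2-2 alike were 537 genes, all in one direction, 221 higher and 316 lower. Antiviral effectors had a median of 1.19 on siControl against 0.72, with 21 of 49 and 22 of 52 tested members higher. In the test of the difference 0 of these 52 were called, and 29 had a lower coefficient in ZBED2-depleted cells. Mitosis genes had a median of -1.85 on siControl against -1.13. Of 38 mitosis genes 1 was called in that test, and 1 had a lower coefficient in ZBED2-depleted cells. STAT2 rose by 2.04 on siControl against 0.78 (difference -1.25, SE 0.37, adjusted p = 0.126) and CD274 by 3.21 against 1.67 (difference -1.53, SE 0.86, adjusted p = 0.502), and neither difference passed the test. With each ZBED2 siRNA alone STAT2 (adjusted p = 0.131 and 0.0817) and CD274 (adjusted p = 0.105 and 0.192) were not called. IFI6 (3.84 against 3.14, adjusted p of the difference 0.703) and MKI67 (-2.35 against -1.76, adjusted p of the difference 0.504) did not pass it either. ZBED2 itself fell by 2.47 (SE 0.57, adjusted p = 0.00846) with siFOXA1 on siControl.

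Of 13264 genes 81 differed between the backgrounds (0.611%, 1609 at an unadjusted p under 0.05, and 212 with the replicate number as a block), 41 with a higher and 40 with a lower coefficient in ZBED2-depleted cells. In 77 of the 81 the change was smaller there, and 64 had the same sign on both. The lysosomal SLC17A5 stood at 16.3 and 27.9 CPM in siControl and at 224 and 266 CPM in siFOXA1. With a ZBED2 siRNA it already stood at 71.4, 66.4, 62.3 and 52.5 CPM and rose to 200, 191, 107 and 141 CPM (difference -2.15, SE 0.25, adjusted p = 4.25e-05). CALU, a calcium-binding protein of the secretory pathway, showed the same order, with 104 and 81.7 CPM in siControl, 206 to 281 CPM with a ZBED2 siRNA and 337 to 419 CPM with both (difference -1.38, SE 0.18, adjusted p = 0.000189). ANKRD1 rose by 3.40 on siControl and was at 0.41 over both ZBED2 siRNAs (difference -2.82, SE 0.32, adjusted p = 4.25e-05). The 0.41 pools unlike effects, -0.59 with siZBED2-1 and 1.73 with siZBED2-2, whose difference was called above. EIF3K, a subunit of an initiation factor, fell on siControl, from 221 and 250 to 104 and 100.2 CPM, and stood at 191 to 228 CPM without and 181 to 214 CPM with siFOXA1 in ZBED2-depleted cells (difference 1.15, SE 0.18, adjusted p = 0.00253). CAMK2N1, a kinase inhibitor (difference 0.88, adjusted p = 0.00408), and IGFBP3, which binds insulin-like growth factors (1.14, adjusted p = 0.00582), followed, the call of IGFBP3 being lost without siFOXA1 replicate 2 (0.82, adjusted p = 0.0605). Ribosomal protein genes had a median of -0.33 on siControl, where 31 of 77 fell, against 0.06 here. The count of 81 was 13 without siFOXA1 replicate 2, 22 without siControl replicate 2, 330 without siFOXA1 replicate 1, 124 without siZBED2-2 replicate 1 and 122 without siFOXA1+siZBED2-1 replicate 2.

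In SCaBER the same 4 treatments gave 1446 calls among 12701 genes. FOXA1 was at -3.24 there (SE 1.16, adjusted p = 0.0682), so the knock-down did not pass the test in that line. In RT112 and SCaBER alike 11401 genes could be tested, and 657 of them passed in each of the 2 lines, 29.6% of the RT112 and 47.7% of the SCaBER calls, and 640 had one direction. IFI6 rose by 2.68 in SCaBER, and MKI67 fell by 1.09. The test of the difference between the lines called 444 of 14233 genes (3.12%). Of the genes with a larger value in RT112, TIMP3 (difference 1.60, SE 0.12, adjusted p = 1.72e-09), CLU (2.17, SE 0.17, adjusted p = 9.9e-09) and KRT81 (2.79, SE 0.26, adjusted p = 2.39e-07) led, and in SCaBER they were at 0.05, 0.08 and -0.06. KRT81 reads can be shared with near copies among the hair keratins. The other way were KRT17 (difference -1.24, SE 0.14, adjusted p = 3.08e-06), SAMD9 (-1.58, SE 0.18, adjusted p = 5.63e-06) and ACSL3, a fatty acid activating enzyme (-1.04, SE 0.13, adjusted p = 2.07e-05), which fell in RT112 and rose in SCaBER. Over all genes 8.77% rose and 9.84% fell in RT112, and in SCaBER 730 rose and 716 fell of 12701. Among 38 mitosis genes 36 fell in RT112 and 18 in SCaBER, with 16 called in the test of the difference. Antiviral effectors rose in 22 of 52 tested members in RT112 (median 0.72) and in 47 of 54 in SCaBER (median 1.02). In the test of the difference 14 were called, in both directions, with IFIT1 higher in RT112 (3.03) and SAMD9 lower (-1.58).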

How the data were processed

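3′ RNA-seq (QuantSeq) counts of 24 libraries were used, of which 8 enter the main comparison. The authors trimmed reads with TrimGalore 0.6.2 and aligned and counted them with STAR 2.6.1a on hg38 and GENCODE 29, per the labels and the submitters' processing notes, and deposited raw counts per gene for 58721 genes. The study's methods name another build, so no coordinates were taken from the files. The authors also deposited TPM, whose tool is not given in the sources used here, and whose scaling by transcript length does not suit 3′ reads, so it served as an alternative only. Reads were not collapsed by molecular identifiers, so limits from counts cover counting error only.

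Counts were tested with edgeR 4.0.16 (quasi-likelihood, TMM, filterByExpr with a minimum count of 10 and total of 15) in R 4.3.3, two-sided, with Benjamini-Hochberg adjustment over all genes tested and a threshold of 0.05. The main model held siFOXA1 and, as a block, the ZBED2 siRNA. Other models gave the effect with each ZBED2 siRNA, on siControl and in SCaBER, and their differences as interaction terms. Alternatives were DESeq2 1.42.0, its size factors, library size alone, no filter, no ZBED2 siRNA block, 12 libraries, the replicate number as a block, each library left out, and limma 3.58.1 on log2(TPM + 1). The edgeR models of the main comparison, of siFOXA1 with siZBED2-1 and on siControl were run on simulated data. So were the differences between the ZBED2 siRNAs, from siControl and from SCaBER. The other models and the alternatives were not.

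The pairing comes from the labels, where the replicate number marks an experiment batch. Deviations from group means of same-numbered libraries correlated at 0.0168 to 0.0646 over 6 pairs of groups, with 0 over 0.1.

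Named genes were FOXA1, ZBED2, STAT2 and CD274, then per direction the 8 smallest p and the 4 largest changes over 10 CPM among genes changed at least 2-fold without overlap, then per list the called genes of smallest p and members not called of high level, with more where roles are described, and the 3 smallest p per direction of each difference. Members and lists were chosen with earlier results of these data known. Promoters and gene positions are from RefSeq on GRCh38.p14. Some genes are not reported here by name, though they count in the totals.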

Additional observations from a re-analysis of the deposited data

Results flagged for a closer look

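These results stand here because a test of the difference between 2 effects of siFOXA1 called them (interaction term, edgeR, adjusted p under 0.05). Values are differences of log2 changes.

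Between the ZBED2 siRNAs 6 genes were called. Of those named in the text the change was lower with siZBED2-1 than with siZBED2-2 for DAB2 (-3.59), ANKRD1 (-2.31), TXNIP (-2.25), MXD4 (-1.73) and GPRC5A (-1.47), and higher for TIMP3 (1.07).

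Between ZBED2-depleted and siControl cells 81 genes were called. The coefficient was lower in ZBED2-depleted cells for MAP2 (-3.43), ANKRD1 (-2.83), SLC17A5 (-2.15), CALU (-1.38), CLU (-1.22) and SPRR3 (-0.95). It was higher there for TIMP3 (0.68), RPL12 (0.70), CAMK2N1 (0.88), GPI (1.01), FABP4 (1.06), IGFBP3 (1.14), EIF3K (1.15), F3 (1.19) and PPDPF (1.23). ANKRD1 and TIMP3 also differed between the ZBED2 siRNAs, so their coefficients here pool unlike effects. TIMP3 was at 2.18 with siZBED2-1 and at 1.11 with siZBED2-2, against 0.97 on siControl.

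Between RT112 and SCaBER, both with ZBED2 siRNAs, 444 genes were called. The coefficient was lower in RT112 for AGR2 (-2.44), FADS1 (-2.03), SAMD9 (-1.58), KRT17 (-1.24), NFKBIZ (-1.19), AKR1C1 (-1.19), ACSL3 (-1.04), RRM2 (-1.01), CCNB1 (-0.98), SCD (-0.87), CDKN1A (-0.85), S100A2 (-0.82), TNIP1 (-0.80), GATA3 (-0.70), RPS2 (-0.64), NDUFA4 (-0.55), DSG2 (-0.51) and PDIA3 (-0.45). It was higher in RT112 for TRMT112 (0.50), MACC1 (0.66), PKP1 (0.67), CDK6 (0.73), ERBB3 (0.76), CTSB (0.78), MT-ND2 (0.83), TGFBI (0.85), IGFBP3 (0.85), PGM2L1 (0.85), PMAIP1 (0.98), SLC17A5 (1.00), KRT80 (1.11), ANKRD1 (1.42), MAP2 (1.51), TIMP3 (1.60), CPA4 (1.86), CLU (2.17), HIST1H2AC (2.27), TFEB (2.40), KRT81 (2.79), IFIT1 (3.03) and CCL28 (5.92).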

How the results depend on the processing

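The results checked were genes in the main comparison and in the tests of a difference, so a gene can stand in more than 1. Of 267 called results 128 kept their call in every alternative and 0 changed sign. Over 321 results 4912 of 5453 values kept their side of the threshold, 484 lost the call, 57 gained it and 0 reversed a called direction. Among fits that left out 1 library the count of 2377 became 1802 (siZBED2-1 replicate 1) to 2136 (siZBED2-2 replicate 1). It was 2387 with DESeq2 size factors, 2598 with DESeq2, 2464 with no filter, 2660 over 12 libraries and 1139 without the ZBED2 siRNA as a block. Leaving out 1 library gave 667 to 1595 calls with siZBED2-1, 603 to 1362 with siZBED2-2, 1576 to 3499 with siControl, 7 to 49 for the difference between ZBED2 siRNAs and 13 to 330 for that from siControl. Where this left 1 library in a group, that library was assumed to vary like the others. These 2 differences gave 44 and 238 calls with DESeq2 and 64 and 224 with no filter, and the first 12 over 12 libraries.

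With the replicate number as a block, which the labels pair, the main count was 2529, the difference between ZBED2 siRNAs 37 and that from siControl 212. The other counts over all genes moved by less than 1.5 times. Among lists, members called went from 4 to 8 higher and 4 to 7 lower for ribosomal proteins, from 1 to 2 lower for ATF4, from 1 to 2 higher for cholesterol and fatty acids and from 0 to 1 higher for MHC class I. Of the called genes checked CENPA lost its call (-1.65, adjusted p = 0.0576).

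On log2 TPM with limma the median of the list was 0.2533 for interferon signalling, 0.1382 for sensors, 0.3827 for checkpoint ligands, 0.4034 for antiviral effectors, 0.3677 for chemokines, -0.5808 for G1 control, -0.5806 for luminal factors, -0.4729 for luminal differentiation, -0.4125 for basal genes, -0.3324 for AP-1 and MAPK, -0.2766 for cholesterol and fatty acids, 0.3452 for matrix proteases, 0.06875 for lysosome, -0.3734 for NRF2 and -0.2632 for glycolysis. It changed sign to -0.1827 for NF-kB, -0.1979 for p53 targets, -0.1979 for ribosomal proteins, -0.03824 for MHC class I, -0.1798 for mesenchymal genes, -0.02943 for ATF4 and -0.07871 for the respiratory chain. The median of all genes was -0.218 there. With library size alone it was 0.5562 for checkpoint ligands, -0.4704 for luminal factors, -0.2615 for basal genes, and it changed sign to -0.07552 for p53 targets, -0.01447 for NF-kB, -0.05559 for mesenchymal genes and -0.0327 for ribosomal proteins. Without 1 library each it ran from 0.2975 to 1.051 for checkpoint ligands, -0.4646 to -0.272 for luminal factors, -0.2033 to -0.0288 for basal genes, -0.08873 to 0.08403 for p53 targets and -0.1699 to -0.0019 for NRF2. The cause of these shifts was not tested. Depth limits genes near 3 counts a library, such as ZBED2.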
